A study of Mus musculus with 7 samples.

Results

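Epha4 is a gene of mouse chromosome 1 for a receptor tyrosine kinase that binds ephrins, and the values below describe how its promoter contacts the surrounding chromosome when inversions move part of its regulatory domain. The gene was followed in the deposited data in both forms in which they report it. One form was its row among the 103 genes of each table of promoter contact with an enhancer region. The other was the contact profile of 1 bin of 10 kb among the 1000 bins of each contact map, the bin at chr1:77.51-77.52 Mb (mm9) that holds the Epha4 start site. That position was taken from general knowledge of the mm9 annotation, because the tables give no coordinates and no annotation of that build was used here.

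Contacts had been measured by capture Hi-C, in which crosslinked chromatin is cut with DpnII and religated, and fragments of the region between 71 and 81 Mb are enriched before sequencing. The mutant limb bud libraries carried the inversion Inv1, Inv2, Inv3 or Inv4, or Inv1 together with a deletion that its title names DelCTCF (Inv1DelCTCF), and the remaining libraries were Inv1 embryonic stem cells (ESC) and wild type (WT) limb buds. Limb buds were fore- and hindlimb tissue of stage E11.5 from 10 pooled embryos per library, and their titles add the word Distal. The changes were made with CRISPR/Cas9. Each of the 7 conditions was 1 library, so every difference lies between 2 libraries, has no replicate check and carries no p-value. The labels do not give the extent of the deletion, the clones behind the mutants or, for Inv2 to Inv4, whether a WT chromosome was present beside the inverted one. The tissue field names limb bud and the cell type field names an ESC line for all 7 samples, and contact maps offer no marker gene to check either.

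Limb enhancers of Epha4 lie far from the gene, inside one contact domain, and are known to reach the promoter by folding of the chromatin fibre. Contact domains are flanked by borders, often bound by the protein CTCF, and contact across a border is rarer than contact within a domain. Ephrin receptors take part in cell sorting and axon guidance, and in the limb Epha4 helps motor axons choose their path.

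The promoter sequence of Epha4 (RefSeq, GRCm38.p6, GeneID 13838, minus strand) is shown because the bin that holds it is the viewpoint of all profiles below. It covers 250 bases before to 50 bases after the start site, 5′ to 3′ on the strand of the gene, with the DpnII site in capitals.
Epha4 promoter: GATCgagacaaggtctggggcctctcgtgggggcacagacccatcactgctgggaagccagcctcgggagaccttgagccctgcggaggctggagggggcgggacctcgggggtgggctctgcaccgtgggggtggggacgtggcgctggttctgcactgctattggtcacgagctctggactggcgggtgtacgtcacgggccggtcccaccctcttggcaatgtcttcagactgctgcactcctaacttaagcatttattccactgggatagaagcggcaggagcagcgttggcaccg
The window held 1 GATC, its first 4 bases, and 64.0% of its bases were G or C. At least one GATC, which reads the same on both strands, was present in 48.0% of 32851 promoter windows of the same length.

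The inverted segments were given 1 shared end at 75.90 Mb on the side of Epha4, taken from the Inv2 match. With it they reached to 75.27 Mb (Inv1), 75.13 Mb (Inv2), 74.93 Mb (Inv3) and 74.8 Mb (Inv4). The matching compared each bin's balancing factor with that of WT. For Inv2, Inv3 and Inv4 the factors came from the negative values, which belong to a WT copy subtracted from these maps. Their match therefore describes how that copy was ordered, not the mutant library itself. The matching determined well only the sum of both ends of a segment, so each left end rests on the shared end. The ends are known to about 1 or 2 bins. Each segment held the WT domain border, found at 75.62 Mb, and therefore carried the stretch from 75.62 to 75.90 Mb to its far side. This stretch is called the moved part. The sequence from 75.90 Mb to the promoter, called the remaining domain, and everything beyond the promoter were moved in none of the mutants. A second border lay at the promoter itself, at 77.51 Mb in WT, and the next one at 77.94 Mb.

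Recovered read pairs were 3903613 in Inv1, 4003536 in Inv1DelCTCF, 4305909 in Inv1 ESC and 5155259 in WT. The promoter bin itself had 7287 read pairs beyond 20 kb in Inv1, 7971 in Inv1 ESC and 9890 in WT. In Inv1DelCTCF the sequence right of the deletion was displaced by 3.8 kb in the file, so the promoter bin was drawn from 2 file bins with 7958 and 7389 read pairs. The Inv2, Inv3 and Inv4 maps held a library minus a weighted copy of the WT map, which had removed 49.3%, 49.4% and 49.1% of the median bin sum, and 28.8% to 31.3% of their listed bin pairs were negative. With that copy added back their promoter bins had 6886, 6445 and 5804 read pairs. The counting errors given below include the error of the subtracted map, cover counting error only and are larger in these 3 libraries. Errors of differences treat both maps as independent. The Inv2, Inv3 and Inv4 maps hold WT counts themselves, so the errors of their differences to WT are too small.

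In the gene tables, Epha4 had 0.487 scaled units of contact with the enhancer region on the Inv1 chromosome, 1.54 on Inv2, 1.995 on Inv3 and 1.25 on Inv4, against 7.68 in WT. Every inversion lay below WT. The Inv2, Inv3 and Inv4 values carry the subtraction of WT signal, with 25, 13 and 12 negative genes, against 0 in Inv1 and in WT. Their size and rank depend on that subtraction and are not directly comparable with those of Inv1. How far it lowered Epha4 was not tested. Epha4 ranked 68, 32, 39 and 58 of 103 genes in Inv1 to Inv4, and first in WT. With negative values set to 0, its ratio to WT on the log2(value + 0.5) scale was -3.05, -2.01, -1.71 and -2.22, beside medians over all genes of 0.62, 0.0044, 0.81 and 1.08. No other gene had a lower ratio in Inv1. Below Epha4 were Gm17751 and Pax3 for Inv2, at -3.22 and -2.31, Gm17751 for Inv3, at -3.22, and Mir6352 and Pax3 for Inv4, at -3.60 and -2.31. All of these were negative values set to 0, so their ratios rest on that floor and on the pseudocount.

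The highest gene of each inversion's table lay far above Epha4. Epha4 reached 2.12% of the value of Ptprn (Inv1), 7.67% of Nhej1 (Inv2), 5.48% of Fev (Inv3) and 3.70% of Prkag3 (Inv4). Ptprn encodes a protein of secretory granules, Nhej1 a DNA end joining factor, Fev an ETS transcription factor and Prkag3 a subunit of AMP-activated kinase. How the tables were scaled is not given in the sources used here. Centring each log2 ratio on the median gene gave -3.67, -2.01, -2.52 and -3.31 for Inv1 to Inv4, which puts Inv3 below Inv2 and not above it.

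The genes whose log2 ratios over the 4 inversions lay nearest to those of Epha4 were Mir6343 at a Euclidean distance of 1.40, Mir6352 at 1.78, Pax3 at 2.51, Gm17751 at 3.13 and 1700016L21Rik at 3.31. The first 4 are listed within 2 rows of Epha4, and Mir6343 and Mir6352 directly beside it. Mir6343 was at 0.54, 1.61, 1.57 and 1.49 scaled units in Inv1 to Inv4, against 4.65 in WT. Mir6352 was at 0.486, 2.48, 1.86 and -0.117, against 5.55 in WT. Neighbouring bins share their map and its scaling, so these likenesses are no independent evidence. The distances of Mir6352, Pax3 and Gm17751 rest in part on negative values set to 0. Pax3, a transcription factor gene listed 2 rows away, was at 0.963, -0.87, 0.984 and -0.808 in Inv1 to Inv4, against 1.98 in WT.

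**Figure D1:**
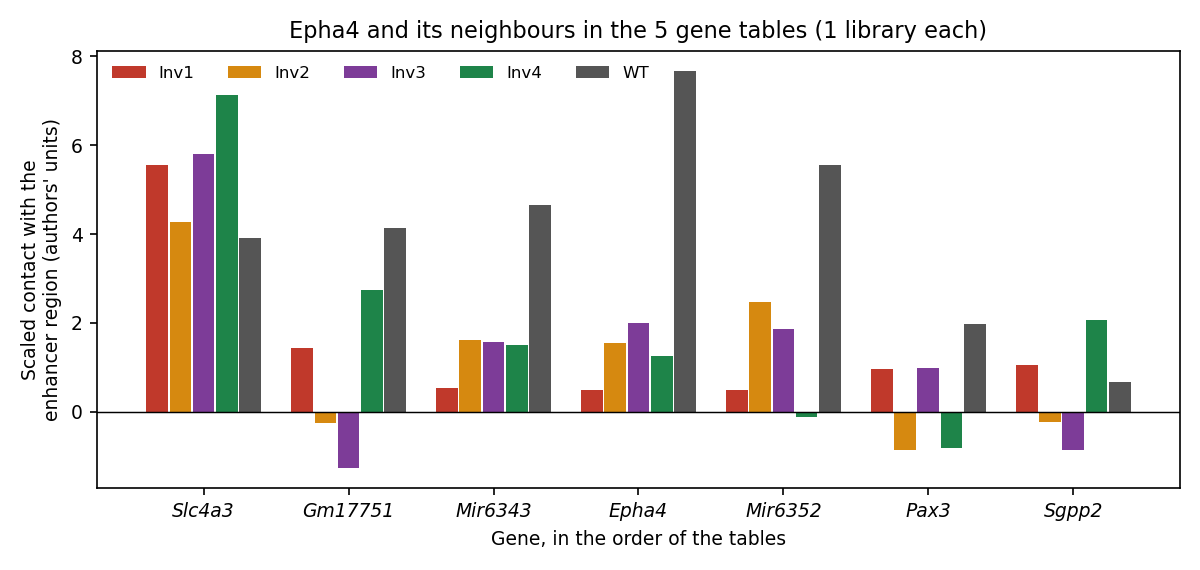
Scaled contact with the enhancer region (authors' units, vertical axis) of Epha4 and 3 genes on either side of it in the tables, with 1 bar per library for Inv1, Inv2, Inv3, Inv4 and WT. Epha4 has the highest WT bar, 7.68, and bars of 0.487 to 1.995 in the inversions, while Slc4a3 on the left is above its WT value of 3.91 in all 4 inversions.

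In the maps, contact of the Epha4 promoter with the moved part was far lower in every inversion than in WT. Inv1 gave the moved part 0.940 ± 0.122% of the promoter's contacts beyond 20 kb (± counting SE), Inv2 gave it 2.14 ± 0.589%, Inv3 2.30 ± 0.603% and Inv4 2.30 ± 0.622%, against 10.56 ± 0.311% in WT. That is 8.90%, 20.3%, 21.8% and 21.8% of WT. With the bin before the promoter bin the moved part took 1.14%, 1.12%, 2.11% and 1.28% in Inv1 to Inv4, against 9.39% in WT. The lower value of Inv1 beside Inv2 and Inv4 therefore depended on the bin, while all 4 stayed below WT. The difference to WT was -9.62 ± 0.334 percentage points in Inv1, and -8.42, -8.26 and -8.26 in the others. Inv2, Inv3 and Inv4 did not differ from each other beyond their 95% counting intervals, which ran from 0.986% to 3.29%, 1.12% to 3.48% and 1.08% to 3.52%. Their size depends on the deposited subtraction: with the subtracted WT signal added back they were 6.20%, 6.25% and 6.21%. Adding WT signal moves a value towards WT and cannot carry it past WT. That these values lie below WT was therefore fixed in advance.

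Each inversion also carries the moved part farther from the promoter. Their mean distance along the chromosome was 2101, 2245, 2442 and 2579 kb for Inv1 to Inv4, against 1755 kb in WT. Divided by the mean contact of the same map at the same distance (observed over expected), the promoter's contact with the moved part was 1.17 ± 0.153 for Inv1, 3.36 ± 0.942 for Inv2, 4.14 ± 1.11 for Inv3 and 3.89 ± 1.07 for Inv4, against 8.69 ± 0.269 in WT. In Inv1 the contact was close to the mean of its distance, and in all 4 inversions it was below WT after distance had been divided out.

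The profile was also read in windows of 50 kb. Window values are percent of the median bin sum of the map, near pairs included, so their base differs from that of the shares above. The 5 windows of 50 kb with the highest observed over expected beyond 200 kb from the promoter began at 75.60, 75.65, 75.90, 75.80 and 75.75 Mb, with 11.3, 10.2, 10.03, 8.99 and 8.42. Of these, 4 lie wholly or mostly in the moved part. In WT these 4 took between 1.58 ± 0.116% and 1.81 ± 0.125%, so they did not clearly differ from each other. The window at 75.60 Mb took 0.242%, 0.428%, 1.18% and 0.83% of contacts in Inv1 to Inv4, against 1.81% in WT. At 75.80 Mb the same 4 libraries had 0.11%, 0.27%, 0.158% and 0.219%, against 1.77% in WT. The losses were therefore deeper at 75.80 Mb than at 75.60 Mb in Inv3 and Inv4. Single windows of these 2 maps, however, carry counting SEs of 0.202 to 0.266 percentage points. By observed over expected, the window at 75.60 Mb had 1.72, 3.60, 11.46 and 7.87 in Inv1 to Inv4, against 11.30 in WT. Inv3 thus showed no loss in that window once distance was divided out. At 75.80 Mb the values were 0.99, 2.91, 1.93 and 2.43, against 8.99 in WT.

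The window at 75.90 to 75.95 Mb, the first of the remaining domain, was not moved and behaved differently. Its window value was 2.84 ± 0.183% for Inv1, 2.85 ± 0.350% for Inv2, 3.65 ± 0.385% for Inv3 and 3.50 ± 0.399% for Inv4, against 2.199 ± 0.141% for WT. All 4 values were above WT.

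**Figure D2:**
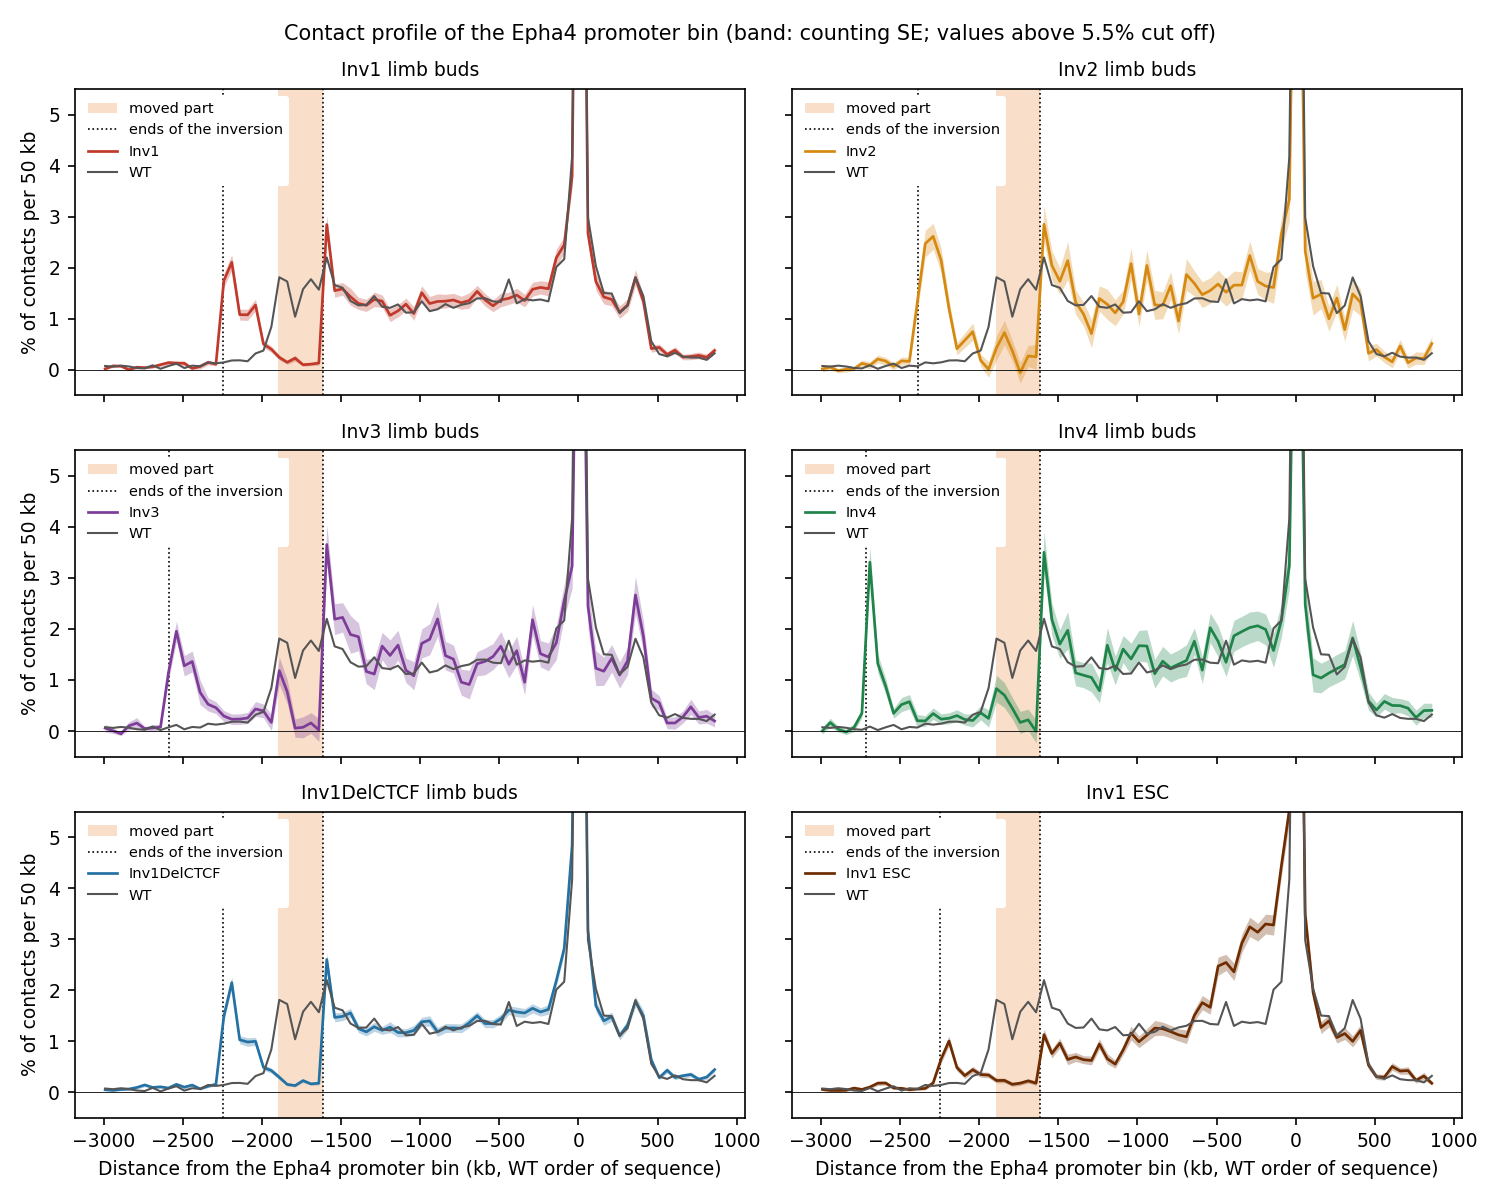
Contact profile of the Epha4 promoter bin in each mutant (coloured line, band for ± 1 counting SE) and in WT (grey). The vertical axis is percent of the map's median bin sum, near pairs included, per 50 kb window. The horizontal axis is distance from the promoter in WT order of sequence (kb). The shaded stretch is the moved part and dotted lines mark the ends of each inversion: every mutant line lies below WT in the shaded stretch and has a peak just inside the far dotted line, lowest in Inv1 ESC.

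Sequence of the gene-dense side that each inversion brought nearer to the remaining domain gained contact with Epha4. In Inv1 the stretch from 75.27 to 75.62 Mb took 9.69 ± 0.349% of contacts, against 3.09 ± 0.176% in WT. In Inv2 the stretch between the left ends of Inv2 and Inv1 took 8.43 ± 0.492%, against 0.432 ± 0.073% in WT. The stretch between the left ends of Inv3 and Inv2 took 6.94 ± 0.503% in Inv3, against 0.338 ± 0.065% in WT. The outermost stretch, between the left ends of Inv4 and Inv3, took 6.08 ± 0.444% in Inv4, against 0.182% in WT. Each gain was far larger than the counting error. In the shorter inversions, which leave these 3 outer stretches in place, they were above WT by 0.103 to 0.323 percentage points. Those small differences of Inv1 to Inv3 had counting SEs of 0.0765 to 0.1837, and none was beyond its 95% counting interval. Summed over the whole gene-dense side of the WT border, from 71 to 75.62 Mb, contact was 13.57 ± 0.416%, 15.8 ± 0.771%, 12.2 ± 0.767% and 13.4 ± 0.790% for Inv1 to Inv4, against 6.96 ± 0.278% for WT. Not every stretch of that side was higher. The stretch from 75.27 to 75.62 Mb took 2.33 ± 0.395% on Inv3 and 2.28 ± 0.401% on Inv4, -0.77 ± 0.433 and -0.81 ± 0.438 percentage points from WT, and with 3 bins centred on the promoter these differences were -1.36 ± 0.253 and -1.72 ± 0.25. Sequence beyond all inversions, from 71 to 74.8 Mb, took 2.57 ± 0.20%, 1.60 ± 0.381%, 1.17 ± 0.388% and 2.25 ± 0.427% for Inv1 to Inv4, against 2.92 ± 0.197% for WT.

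The window with the largest gain in each inversion lay at or next to its left end. It began at 75.30 Mb in Inv1 with 2.10 ± 0.15%, against 0.182% in WT, and at 75.20 Mb in Inv2 with 2.61 ± 0.254%, against 0.126% in WT. In Inv3 it began at 74.95 Mb with 1.95 ± 0.196%, against 0.12% in WT, and in Inv4 at 74.80 Mb with 3.31 ± 0.303%, against 0.087% in WT. The windows of largest loss all lay in the moved part, between 75.75 and 75.90 Mb, and held between -0.06% and 0.158% in the inversions.

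Read by place on the chromosome and not by sequence, contact changed less. The bins from 75.62 to 75.90 Mb, whatever sequence lay there, took 9.07 ± 0.339% of the promoter's contacts on the Inv1 chromosome, 11.36 ± 0.580% on Inv2, 7.81 ± 0.536% on Inv3 and 7.57 ± 0.506% on Inv4, against 10.56 ± 0.311% in WT. The value of Inv2 differed from WT by 0.79 ± 0.658 percentage points, and those of Inv1, Inv3 and Inv4 by -1.49 ± 0.460, -2.76 ± 0.620 and -2.995 ± 0.594. This measure was added after the profiles had been seen. All sequence beyond the breakpoint together, moved part included, took 14.5%, 17.9%, 14.5% and 15.7% in Inv1 to Inv4, against 17.5% in WT.

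Contacts of the promoter with sequence that stayed in place changed by a few percentage points. The share of the remaining domain was 59.2 ± 0.634% for Inv1, 60.2 ± 1.20% for Inv2, 60.5 ± 1.25% for Inv3 and 60.5 ± 1.28% for Inv4, against 56.1 ± 0.530% in WT. The differences to WT of 3.15 to 4.47 percentage points were 3.15 to 3.81 times their counting SE. For Inv2 to Inv4 those multiples are too large, because their errors leave out the WT counts that both maps share. The side of the promoter away from the inversions took 26.3 ± 0.60%, 21.9 ± 1.06%, 24.9 ± 1.12% and 23.8 ± 1.15% in Inv1 to Inv4, against 26.4 ± 0.488% in WT. The difference to WT was -4.51 ± 1.17 percentage points in Inv2, -1.46 ± 1.22 in Inv3, -2.59 ± 1.25 in Inv4 and -0.14 ± 0.773 in Inv1. With the bin before the promoter bin it was -3.41 ± 1.01 in Inv2, -3.71 ± 1.01 in Inv3, -0.15 ± 1.11 in Inv4 and -0.25 ± 0.614 in Inv1, so the value of Inv3 or Inv4 depended on the bin. Since all shares of a library add up to the whole, a smaller share in one region raises the others.

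**Figure D3:**
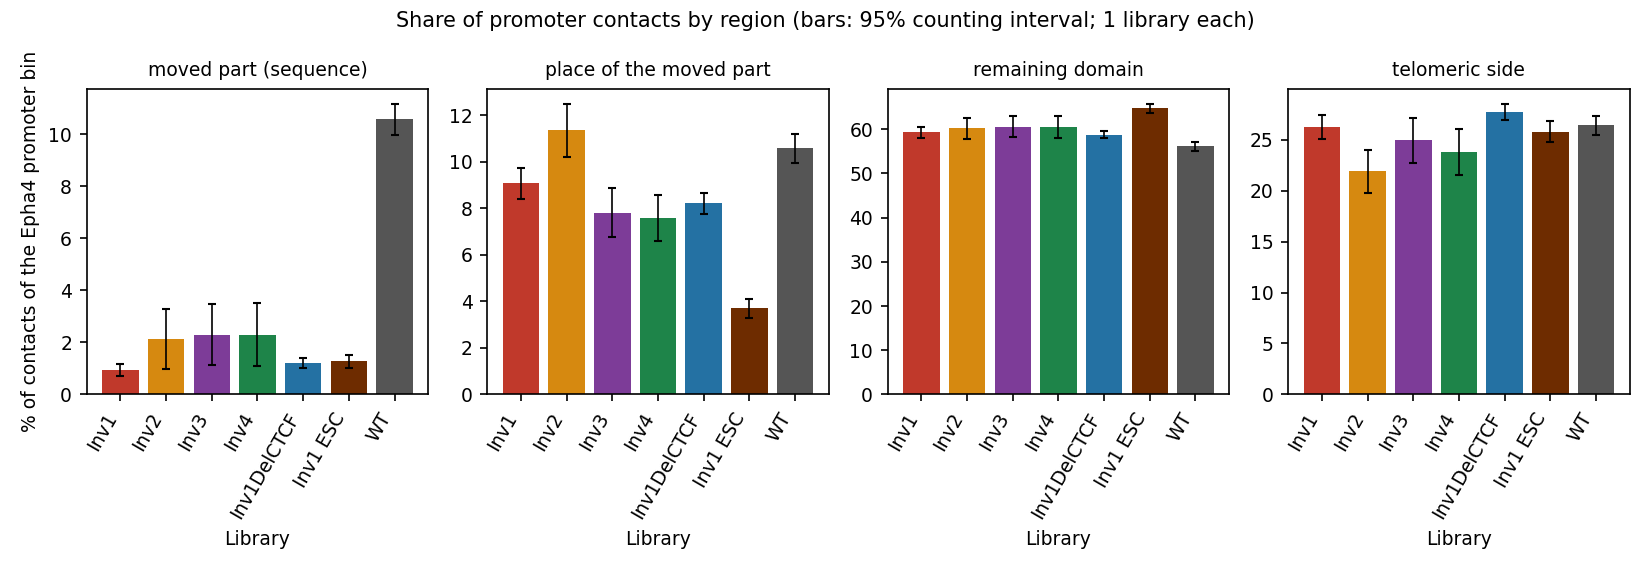
Share of the Epha4 promoter's contacts beyond 20 kb (percent, vertical axes from 0) with the moved part by sequence, with the place of the moved part, with the remaining domain and with the side of the promoter away from the inversions (titled telomeric side), for Inv1, Inv2, Inv3, Inv4, Inv1DelCTCF, Inv1 ESC and WT, with 95% counting intervals. The moved part is at 0.940% to 2.30% in the mutants and 10.56% in WT, while its place is at 3.70% in Inv1 ESC and 7.57% to 11.36% in the other libraries.

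Counted over windows of 50 kb with at least 20 read pairs, 13 of 64 windows of the promoter profile were past 2-fold of WT in Inv1, 6 higher and 7 lower. Over all other viewpoints of the map 8.56% of windows were past 2-fold. Here and below these are the 880 bins that lie outside every inversion and are well covered in all maps. In Inv2 18 of 65 windows were past 2-fold (7 higher, 11 lower), against 18.0% over all other viewpoints. In Inv3 it was 14 of 65 (6 and 8), against 18.5%, and in Inv4 14 of 63 (6 and 8), against 18.9%. With observed over expected in place of shares, 9 windows of Inv4 were past 2-fold. Bins of the remaining domain had much the same share as the promoter: their median was 18.75%, 22.9%, 21.8% and 22.6% in Inv1 to Inv4, and the promoter ranked 40, 16, 87 and 85 among the 160 bins. The windows past 2-fold lay mostly beyond the breakpoint, and of the 31 windows of the remaining domain 0 passed in Inv1, Inv3 and Inv4 and 1 in Inv2.

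In WT the promoter bin stood out from its neighbours in its contact with the moved part. It gave 9.01% of all its contacts, near ones included, to the moved part, against 7.82% and 6.91% in the bins on either side and a median of 4.44% over the 60 other bins within 300 kb. Its observed over expected of 8.69 was the highest of these 61 bins and of the 160 bins of the remaining domain. By share it ranked 12 of those 160. In Inv1 the promoter bin gave 0.79%, which was 8.77% of WT and the smallest fraction retained among the 61 bins, where the others retained 11.51% to 37.7%. Among the 160 bins of the remaining domain it ranked 158 by that fraction, and the others retained 5.67% to 29.7%. In Inv2, Inv3 and Inv4 the promoter retained 21.2%, 22.8% and 22.8% of WT and ranked 49, 51 and 30 of 61 by that fraction. A bin that is high in WT has more to lose, so these ranks are a description.

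**Figure D4:**
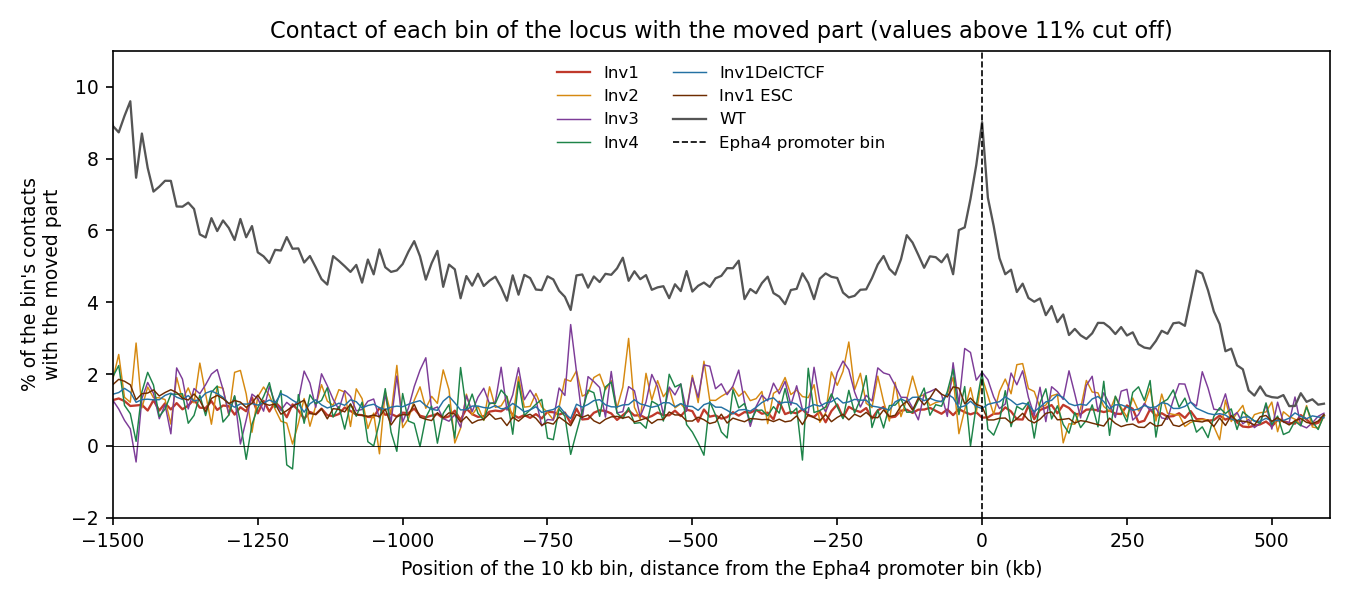
Percent of all contacts of each 10 kb bin that fall on the moved part (vertical axis) against the bin's distance from the Epha4 promoter (kb, horizontal axis), for Inv1, Inv2, Inv3, Inv4, Inv1DelCTCF, Inv1 ESC and WT. The WT line has a local peak of 9.01% at the promoter (dashed line), and the mutant lines there are at 0.79% to 2.06%.

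The border at the promoter was present in all 7 maps. Its depth in the insulation profile (log2 units, squares of 200 kb) was 1.07, 0.967, 1.11 and 0.965 in Inv1 to Inv4, against 1.18 in WT, and it lay at 77.51 Mb in each. Contact from the promoter to the next border at 77.94 Mb took 17.9%, 15.2%, 17.9% and 14.9% in Inv1 to Inv4, against 18.9% in WT.

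In Inv1DelCTCF the Epha4 profile differed from that of Inv1 by less than 2 percentage points in every region summed. The moved part took 1.20 ± 0.095% of contacts in Inv1DelCTCF, against 0.940 ± 0.122% in Inv1, which differ by 0.26 ± 0.155 percentage points. Contact with the stretch from 75.27 to 75.62 Mb amounted to 8.61 ± 0.237% in Inv1DelCTCF, against 9.69 ± 0.349% in Inv1. That difference of -1.08 ± 0.422 was 0.27 ± 0.369 when the bin before the promoter bin was used. The remaining domain took 58.7 ± 0.429% in Inv1DelCTCF and 59.2 ± 0.634% in Inv1. The nearest 150 kb on the side of the inversions took 10.96% in Inv1DelCTCF, against 9.58% in Inv1, with a difference of 1.38 ± 0.423 that turned to -1.21 ± 0.456 with the bin before. These shares were read after the 3.8 kb displacement had been undone. In the file bins as deposited the remaining domain of Inv1DelCTCF took 54.95%, and the side away from the inversions 31.1% and not 27.8%.

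Of 59 windows 1 was past 2-fold between Inv1DelCTCF and Inv1, against 2.0% over all other viewpoints. Set against WT, 11 of 63 windows of Inv1DelCTCF were past 2-fold (5 higher, 6 lower), with 7.57% over all other viewpoints. That is 17.5% of its windows, near the median of 18.0% over bins of the remaining domain, and the promoter ranked 99 of 160. The window of largest gain over WT began at 75.30 Mb, as in Inv1, with 2.15 ± 0.114% in Inv1DelCTCF and 0.182% in WT. The border at the promoter had a depth of 1.16 in Inv1DelCTCF and 1.07 in Inv1. Differences larger than the counting errors had no replicate check, and smaller ones could not be seen from 1 library each.

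In Inv1 ESC the promoter had less contact with sequence around the breakpoint and more with sequence near itself than in Inv1 limb buds. The stretch from 75.27 to 75.62 Mb took 4.19 ± 0.218% of contacts in Inv1 ESC and 9.69 ± 0.349% in Inv1 limb buds, a difference of -5.50 ± 0.412 percentage points. The first 200 kb of the remaining domain took 4.05 ± 0.228% in Inv1 ESC and 8.82 ± 0.349% in Inv1 limb buds. The nearest 150 kb on the same side took 14.7 ± 0.390% in Inv1 ESC and 9.58 ± 0.342% in Inv1 limb buds. The differences of -4.76 ± 0.417 and 5.13 ± 0.519 kept their direction with the bin before the promoter bin, at -3.93 ± 0.329 and 8.83 ± 0.566. The moved part took 1.27 ± 0.126% in Inv1 ESC and 0.940 ± 0.122% in Inv1 limb buds, which differed by 0.33 ± 0.176.

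Sums over larger regions depended on the bin. The remaining domain took 64.7% in Inv1 ESC and 59.2% in Inv1 limb buds from the promoter bin, but 64.1% in Inv1 ESC and 64.6% in Inv1 limb buds from the bin before it. The gene-dense side took 8.30% in Inv1 ESC and 13.57% in Inv1 limb buds from the promoter bin, but 11.9% in Inv1 ESC and 12.2% in Inv1 limb buds from the bin before it. The border at the promoter was shallower and lay 2 bins to the right in Inv1 ESC, with a depth of 0.869 at 77.53 Mb, against 1.07 at 77.51 Mb in Inv1 limb buds. Its part in the difference between the bins was not tested.

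The window of largest gain in Inv1 ESC began at 77.40 Mb, with 4.45 ± 0.206% in Inv1 ESC and 2.45 ± 0.158% in Inv1 limb buds. The window of largest loss was the first of the remaining domain, at 75.90 Mb, with 1.13 ± 0.111% in Inv1 ESC and 2.84 ± 0.183% in Inv1 limb buds. In total 15 of 60 windows were past 2-fold (3 higher, 12 lower), against 9.97% over all other viewpoints. With observed over expected in place of shares, 7 windows were. By shares, the promoter ranked 3 of 160 among the bins of the remaining domain, whose median was 9.43%. Of its 31 windows in the remaining domain 8 were past 2-fold between Inv1 ESC and Inv1 limb buds, 3 higher and 5 lower.

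Inv1 ESC and WT limb buds differ in both tissue and chromosome, which cannot be told apart in that pair. Between them 19 of 63 windows were past 2-fold (8 higher, 11 lower), against 13.7% over all other viewpoints, and 9 of the 31 windows of the remaining domain were among them. The promoter's share was 30.2%, against a median of 21.4% over bins of the remaining domain, and it ranked 15 of 160. The moved part took 1.27 ± 0.126% in Inv1 ESC and 10.56 ± 0.311% in WT limb buds. No map of WT ESC was analysed here, so how much contact the Epha4 promoter makes with this stretch in stem cells without the inversion was not measured.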

How the data were processed

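Capture Hi-C signal was analysed in 7 libraries, 1 per condition, grouped by sample title. The submitters' processing notes name the build mm9 and the tools Bowtie2 2.2.6 and Juicer. Maps list 1 balanced signal value per pair of 10 kb bins, balanced by the Knight-Ruiz method by the authors, per the file names. The Inv2, Inv3 and Inv4 maps and gene tables hold negative numbers and were treated as scores, made by the authors by subtracting a weighted WT map (weights 0.423, 0.369 and 0.334), as found from the deposited values; the file names call these maps hom. The gene tables hold a contact signal scaled by the authors in a way not given in the sources used here.

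Read pairs were recovered by fitting 1 factor per bin. In the 4 maps without negatives 100.0% of values below 20 read pairs were whole to within 0.1. On maps simulated from the WT means the fit, the weight, the segment ends and the shift were recovered, but with 10 times the read pairs the factors and the weight were not, so the recovery holds only for sparse distant pairs. Mutant maps were turned to WT order by matching bin factors within the segment to WT read backwards (r of 0.719 to 0.975). For Inv2, Inv3 and Inv4 these were factors of the subtracted WT map, fitted from the negative values. The right end was taken from Inv2, the sharpest match. For Inv1DelCTCF, r right of the deletion was 0.824 with the 3.8 kb displacement and 0.734 without it.

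Shares left out pairs under 20 kb. Values of 50 kb windows were divided by the median bin sum of the map, near pairs included. Errors are counting SEs and intervals are 95%. Errors of differences treat the maps as independent, which does not hold for Inv2 to Inv4 against WT. Expected contact was the mean at the same distance in the same map, and a border was an insulation minimum of depth 0.2 or more. No single interval of up to 400 kb gave back the gene table values: at best 11.8% to 16.5% of distinct values matched within 0.01%, so the tables could not check the promoter bin. Named genes were the 5 with the nearest log2 ratios and the highest of each table. Named windows were the 5 highest in WT beyond 200 kb and the largest gain and loss. Alternatives were another promoter window, a wider near limit, read pairs, other windows, pseudocounts of 0.05 and 5 and centring. Negative gene table values were set to 0 before the pseudocount was added. Python 3.11.15, NumPy 2.4.6, pandas 2.3.3 and matplotlib 3.10.9 were used. The gene, its regions and these measures were chosen with earlier results of these data known.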

Additional observations from a re-analysis of the deposited data

How the results depend on the processing

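With 1 library per condition, values are called moved where a share changed by more than its 95% counting interval, or a count or a gene table ratio by over 1.5 times. Of 132 alternative values for 40 results 63 were not moved and 69 were. Differences between libraries could turn with the bin before the promoter bin. For Inv1 ESC against Inv1 limb buds the remaining domain differed by 5.43 percentage points with the promoter bin and by -0.49 with the bin before. For Inv1DelCTCF against Inv1 the gene-dense side differed by -1.23 and 0.18, and the nearest 150 kb by 1.38 and -1.21. Contact with the moved part stayed below WT in every mutant under every alternative run. Where WT signal was added back this was fixed in advance, so that alternative is no check of it. No paired analysis was possible because each condition has 1 library.

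With the bin before the promoter bin, the remaining domain took 64.6% (Inv1), 64.6% (Inv2), 69.2% (Inv3), 64.4% (Inv4), 64.4% (Inv1DelCTCF) and 61.02% of contacts (WT). The gene-dense side took 12.2% in Inv1, 10.1% in Inv3 and 11.9% in Inv1 ESC. The side away from the inversions took 22.05% (Inv1), 18.9% (Inv2), 18.6% (Inv3), 21.9% (Inv1DelCTCF), 22.6% (Inv1 ESC) and 22.3% (WT), and the moved part 9.39% in WT. With 3 bins, the side away took 27.5% in Inv1 and 26.6% in Inv4, the remaining domain 63.5% in Inv1 ESC, the gene-dense side 9.21% in Inv1 ESC and 7.65% in WT, and the moved part 9.67% in WT.

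With pairs under 100 kb left out, the moved part took 1.43% in Inv1DelCTCF, 1.54% in Inv1 ESC and 12.2% in WT. The remaining domain took 60.9% in Inv1, 60.7% in Inv1DelCTCF, 66.2% in Inv1 ESC and 57.5% in WT. For the gene-dense side the values were 15.6% (Inv1), 17.7% (Inv2), 13.8% (Inv3), 14.9% (Inv4), 14.7% (Inv1DelCTCF), 10.01% (Inv1 ESC) and 8.07% (WT). For the side away they were 22.4% (Inv1), 18.1% (Inv2), 21.3% (Inv3), 20.8% (Inv4), 23.2% (Inv1DelCTCF), 22.2% (Inv1 ESC) and 22.2% (WT).

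With the subtracted WT signal added back, chosen after seeing the data, Inv2, Inv3 and Inv4 gave 6.20%, 6.25% and 6.21% for the moved part and 11.53%, 9.72% and 10.3% for the gene-dense side, and Inv2 gave 24.1% for the side away. Without the displacement of Inv1DelCTCF, also chosen after seeing the data, the remaining domain took 54.95% and the side away 31.1%.

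Windows of 100 kb gave fewer windows past 2-fold of WT: 8 in each of Inv1, Inv2, Inv3 and Inv4, 6 in Inv1DelCTCF and 10 in Inv1 ESC, and 6 between Inv1 ESC and Inv1; there are fewer such windows to count. With observed over expected the count was 9 in Inv4 and 7 between Inv1 ESC and Inv1. The log2 ratio of Epha4 to WT in the gene tables with the larger pseudocount was -1.21 (Inv1), -0.96 (Inv2), -0.86 (Inv3) and -1.02 (Inv4), and -3.85 in Inv1 with the smaller one. Centred on the median gene it was -3.67 (Inv1), -2.52 (Inv3) and -3.31 (Inv4). Other causes were not tested. Depth limits single windows of Inv2 to Inv4 most, where the subtraction leaves values near 0.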
